A study of Homo sapiens and Mus musculus with 4 samples.

Results

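TEAD binding was examined around 3 genes of the TGF-beta pathway: TGFB2, which encodes a secreted ligand, SMAD3, which carries the signal to the nucleus, and SMAD7, which inhibits it. The members were all TEAD peaks whose midpoint lay within 150 kb of the start of 1 of the genes. Peak scores played no part in this choice of peaks, but the genes were chosen with earlier results of these data known. There were 85 member peaks among the 69714 in the deposited lists. RD, a human embryonal rhabdomyosarcoma cell line, gave 30 of its 22681 peaks, and YAP-ERMS, mouse cells grown from tumours driven by the co-activator YAP1, gave 55 of 47033. Each list came from chromatin immunoprecipitation and sequencing (ChIP-seq) of 1 TEAD library. The RD library was set against an IgG control, an antibody without a specific target, and the YAP-ERMS library against input chromatin. Per the labels, the mouse tumours arose under Myf5-Cre, which is active in embryonic muscle precursors, or under Pax7-CreER, an inducible recombinase of muscle stem cells. The labels do not say which of these drivers gave the sequenced cells, whether they were clonal or pooled, or which TEAD protein the antibody recognises. There were no replicates and the depth of the 4 libraries is unknown, so all intervals below cover counting error only and no difference was tested between the cell types. The lists hold no expression values, so the cell type could not be checked against markers.

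TGF-beta ligands bind receptor kinases at the cell surface, which phosphorylate SMAD2 and SMAD3. These join SMAD4, enter the nucleus and act on target genes. SMAD7 is itself induced by the pathway and brings ubiquitin ligases to the receptors, which closes a negative feedback loop. TEAD proteins bind DNA and recruit YAP1 or its relative TAZ. In muscle, both TGF-beta signalling and active YAP1 are known to hold myoblasts back from differentiation.

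No RD peak reached within 0.5 kb of the start of each gene around which peaks were collected. The letters that TEAD proteins prefer do occur before TGFB2. The 250 bases before the most upstream human starts of TGFB2 and SMAD3 are therefore shown. They are from RefSeq (GRCh38.p14, a later build than that of the peaks), 5′ to 3′ on the strand of the gene, with any match to the motifs searched in capitals.
TGFB2, chr1:218345086-218345335, plus strand: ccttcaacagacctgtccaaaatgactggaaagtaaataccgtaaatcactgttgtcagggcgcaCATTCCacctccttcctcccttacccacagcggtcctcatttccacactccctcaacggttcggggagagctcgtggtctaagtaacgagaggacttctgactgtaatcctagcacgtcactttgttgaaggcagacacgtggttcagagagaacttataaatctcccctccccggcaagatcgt
SMAD3, chr15:67065352-67065601, plus strand: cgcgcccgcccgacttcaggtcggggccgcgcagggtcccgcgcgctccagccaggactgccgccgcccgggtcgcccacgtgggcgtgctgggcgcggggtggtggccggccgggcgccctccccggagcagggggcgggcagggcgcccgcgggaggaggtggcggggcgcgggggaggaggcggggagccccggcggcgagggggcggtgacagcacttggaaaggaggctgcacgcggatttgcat

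The motifs searched on both strands were GGAATG, the core of the TEAD site, TGAGTCA, the site of AP-1, a factor often found beside TEAD, and GTCTAGAC, the palindromic site of SMAD proteins. In the TGFB2 promoter, CATTCC, the reverse complement of the TEAD core, lay 185 to 180 bases before the start. RefSeq lists further starts of SMAD3 and SMAD7, described below, and only the most upstream start of each gene was used here. The 250 bases before that start held no match to any of the 3 motifs for SMAD3 or SMAD7. Sequence outside the 250 bases before a listed start was not searched, nor were shorter or inexact forms of the motifs. Among 35116 RefSeq promoter windows of the same 250 bases, 11.9% held the TEAD core, 4.20% the AP-1 site and 0.182% the SMAD site. The SMAD3 promoter was 80.8% G and C, against 50.4% for TGFB2 and 48.0% for SMAD7.

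The starts around which peaks were collected are given to the nearest 1 kb. In hg19 they were 218.520 Mb on chromosome 1 for TGFB2, 67.358 Mb on chromosome 15 for SMAD3 and 46.477 Mb on chromosome 18 for SMAD7. In mm9 they were 188.530 Mb on chromosome 1 for Tgfb2, 63.606 Mb on chromosome 9 for Smad3 and 75.527 Mb on chromosome 18 for Smad7. Distances below run from these starts to the midpoint of a peak, and "downstream" means in the direction of transcription.

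The numbers of peaks in the 2 lists were farthest apart at the ligand gene. In RD, 3 peaks lay within 150 kb of the TGFB2 start (exact Poisson 95% interval 0.619 to 8.77), 16 around SMAD3 (9.15 to 26.0) and 11 around SMAD7 (5.49 to 19.7). In YAP-ERMS, 19 lay around Tgfb2 (11.4 to 29.7), 22 around Smad3 (13.8 to 33.3) and 14 around Smad7 (7.65 to 23.5). SMAD3 therefore had the most peaks in both lists, and TGFB2 came last in RD but second in YAP-ERMS. Within RD the intervals of TGFB2 and SMAD3 did not overlap, while those of TGFB2 and SMAD7, and of SMAD7 and SMAD3, did. The non-overlap is narrow and was lost when any overlap with the window counted or the starts lay 0.5 kb higher (4 peaks at TGFB2, 1.09 to 10.2, against 16). It was also lost with peaks within 1 kb joined (3 against 15) and at scores of 160 or more (2 against 9). Within YAP-ERMS the intervals of all 3 genes overlapped. YAP-ERMS had 6.33 times as many peaks as RD at TGFB2 (exact 95% interval 1.86 to 33.4), 1.38 times at SMAD3 (0.690 to 2.80) and 1.27 times at SMAD7 (0.537 to 3.10). The whole lists stood at a ratio of 2.07, which lies inside all 3 intervals. The lists also differ in species and control.

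**Figure D1:**
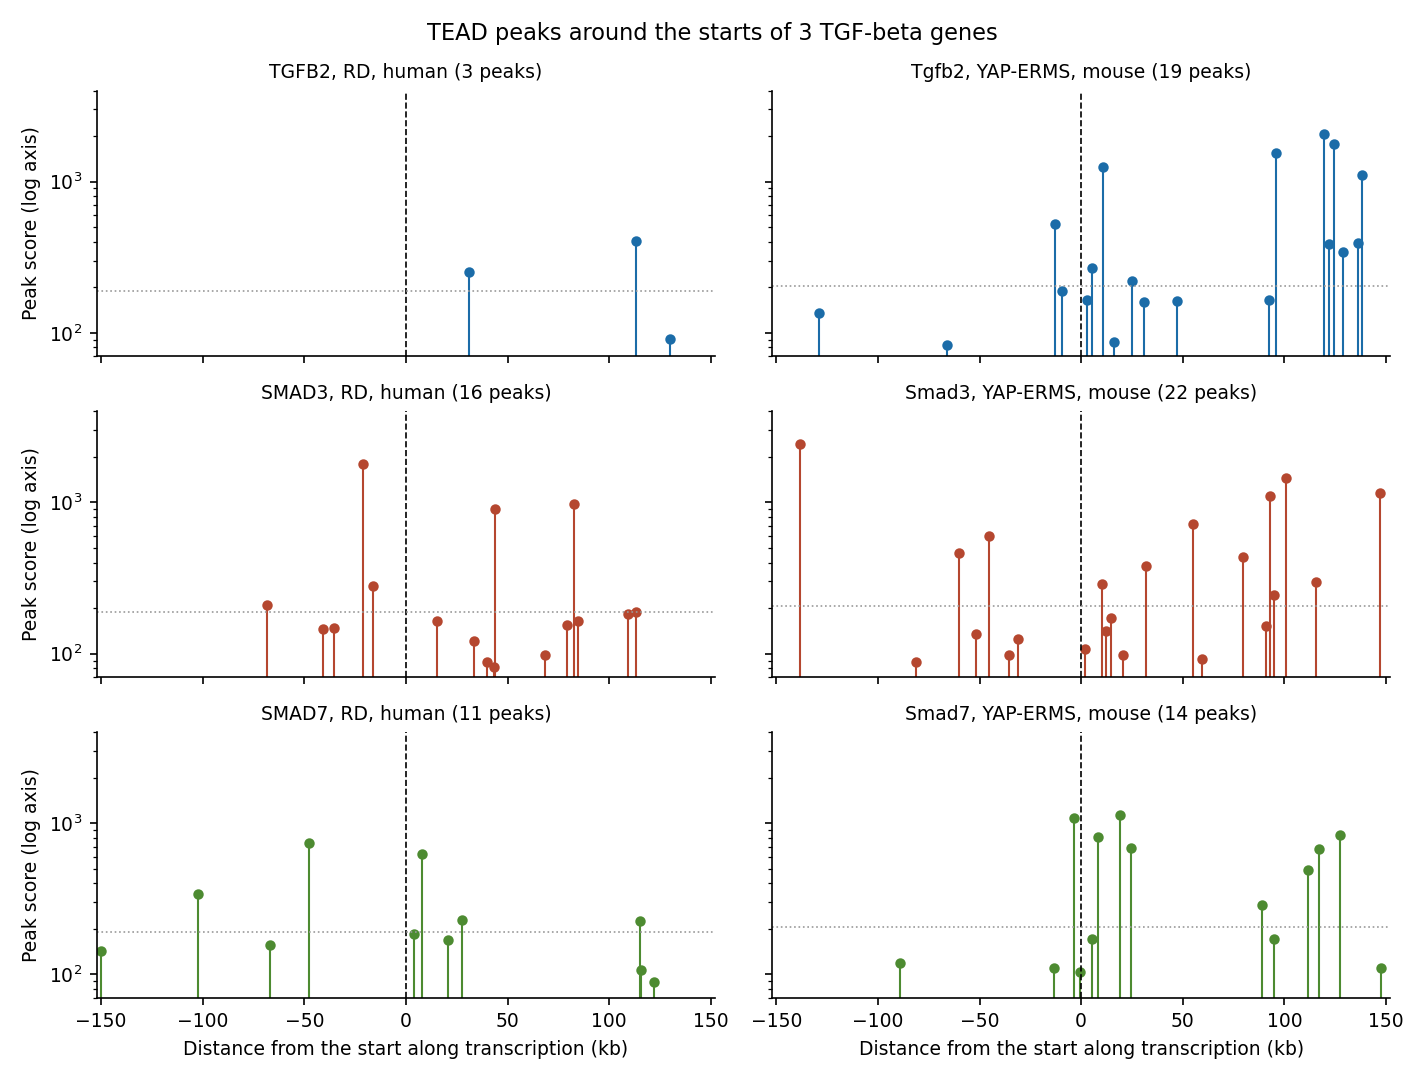
Each point is 1 TEAD peak, placed by its distance from the gene start in kb along transcription (negative is upstream) and its deposited score on a log axis, with the list's median score dotted and the start dashed. The RD window of TGFB2 holds 3 peaks, all downstream, while the YAP-ERMS window of Tgfb2 holds 19, with its highest score 120 kb downstream.

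To place these numbers, each list was cut into consecutive 300 kb tiles over the autosomes and X. A tile held a median of 1 peak in RD and 4 in YAP-ERMS, and 40.4% of RD tiles and 22.7% of YAP-ERMS tiles were empty. At least 3 peaks, the number at TGFB2, were found in 32.2% of RD tiles, so the human TGFB2 window was not unusual for its list. At least 16 peaks, as at SMAD3, were found in 0.830% of RD tiles, and at least 11, as at SMAD7, in 3.23%. In YAP-ERMS, at least 22 peaks, as at Smad3, were found in 1.35% of tiles, at least 19, as at Tgfb2, in 3.18%, and at least 14, as at Smad7, in 9.70%. Tiles include stretches without genes, so a window centred on a gene start is not set against other gene starts here. Nor are these the shares of genes picked without sight of the data.

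**Figure D2:**
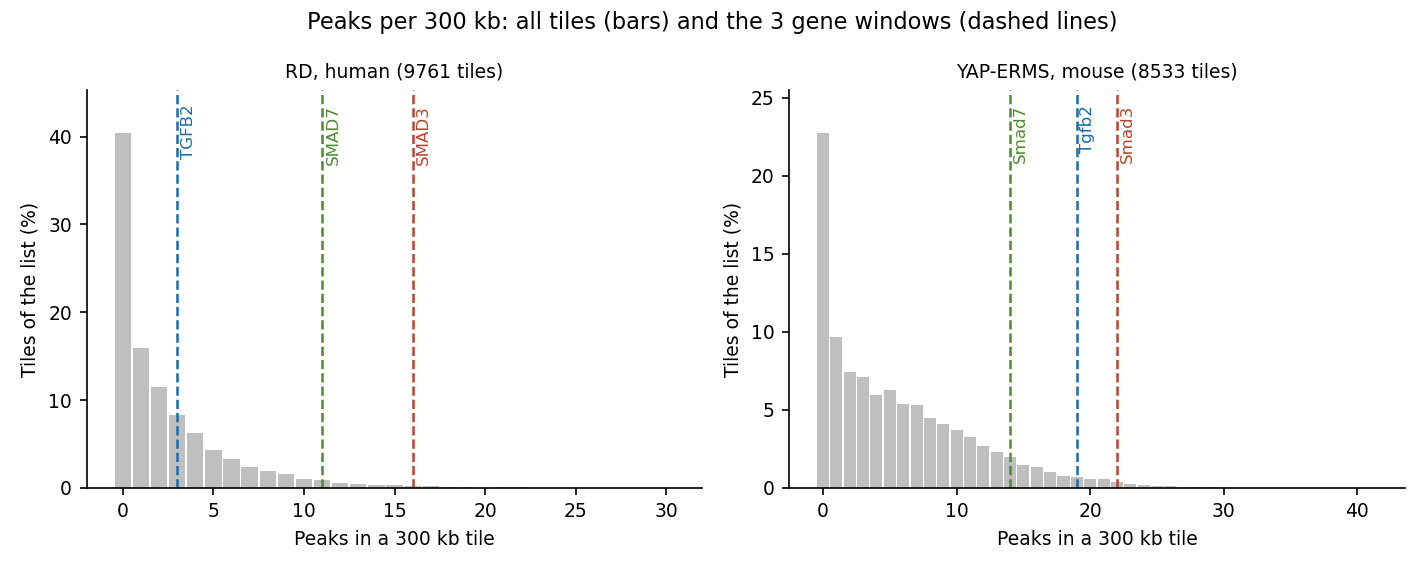
Grey bars give the percentage of 300 kb tiles of a list (vertical axis) that hold a given number of peaks (horizontal axis), and dashed lines mark the 3 gene windows. The human TGFB2 line at 3 peaks stands among the common tiles, and the SMAD3 lines at 16 and 22 peaks stand in the sparse right tail of each list.

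The windows were also compared with their own surroundings, from 150 kb to 1 Mb on either side. The tile shares in this paragraph count only tiles with a peak in those flanks, 8987 in RD and 8177 in YAP-ERMS. Around SMAD3 the window held 5.33 peaks per 100 kb in RD and its flanks 1.47, a ratio of 3.63 (exact 95% interval 1.81 to 7.07), and 7.86% of RD tiles reached that ratio to their flanks. Around Smad3 in YAP-ERMS the values were 7.33 and 2.41 per 100 kb, a ratio of 3.04 (1.73 to 5.23) that 6.11% of tiles reached. SMAD3 had the highest ratio to its flanks in both lists, with an interval that overlaps those of the other genes. At SMAD7, RD had 3.67 peaks per 100 kb against 1.24 in the flanks, a ratio of 2.97 (1.29 to 6.44) that 10.3% of tiles reached. Smad7 in YAP-ERMS had 4.67 against 2.71, a ratio of 1.72 (0.876 to 3.19) that 19.0% of tiles reached. Tgfb2 in YAP-ERMS had 6.33 against 2.59, a ratio of 2.45 (1.35 to 4.28) that 9.84% of tiles reached. TGFB2 in RD had 1.00 against 0.471, a ratio of 2.13 (0.363 to 8.85) that 17.5% of tiles reached. The intervals of TGFB2 in RD and of Smad7 in YAP-ERMS include 1.

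**Figure D3:**
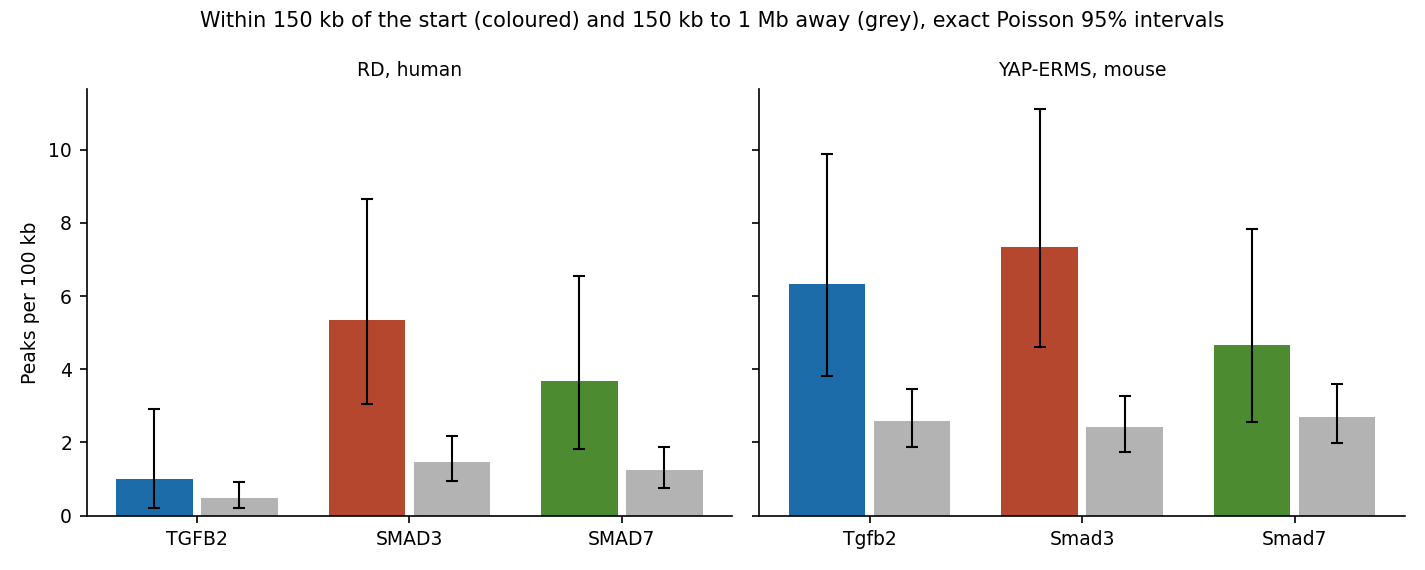
Bars give TEAD peaks per 100 kb within 150 kb of each start (coloured) and from 150 kb to 1 Mb away (grey), with exact Poisson 95% intervals that cover counting error only. The coloured bar is the higher of the pair in each of the 6 windows, and the intervals of the pair overlap for TGFB2 and SMAD7 in RD and for Smad7 in YAP-ERMS.

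TGFB2, the ligand, was the gene with the sparsest binding in RD. Its 3 peaks lay downstream of the start, and the one nearest to it was 30.8 kb away, at 218550662 to 218550999 on chromosome 1 (hg19), 338 bp wide with a score of 254. The score is the authors' own value, read here as a transform of the peak p-value in which higher means a smaller p. The RD median is 189. The highest scoring of the 3 lay 113 kb downstream, at 218633173 to 218633716, with a score of 402, which 23.0% of RD peaks equal or exceed. The remaining one, 130 kb downstream at 218649744 to 218649935, scored 91.5, close to the lowest score listed, 80. No RD peak was listed within 30 kb of the promoter that holds the TEAD core letters.

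The stretch without an RD peak around the TGFB2 start ran from 784 kb upstream to 30.7 kb downstream, or 814 kb in all. Of the 22607 intervals between neighbouring RD peaks on the autosomes and X, 650, or 2.88%, were at least this long, against a median of 32.8 kb. Such long intervals made up 37.6% of the span of these chromosomes. How many other gene starts lie inside one was not counted. The genes on either side of TGFB2 are RRP15 upstream and LYPLAL1 downstream, by the order of protein-coding genes in RefSeq, and TGFB2-AS1 and TGFB2-OT1 overlap it. Peaks were assigned by distance alone, and which exon, intron or neighbouring gene holds a peak was not analysed here.

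In YAP-ERMS, Tgfb2 had peaks both beside its start and far downstream. A chain of 8 peaks, each no more than 12.5 kb from the next, ran from 13.7 kb upstream to 31.8 kb downstream of the start, at 188498207 to 188543671 on chromosome 1 (mm9). Its scores ranged from 86.7 to 1240, against a list median of 205. The peak with the highest score of that chain lay 10.7 kb downstream, at 188518668 to 188520030. The nearest to the start lay 3.11 kb downstream, at 188526490 to 188527300, with a score of 165, below the list median. Within 50 kb of the start there were 9 peaks in YAP-ERMS and 1 in RD.

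The strongest Tgfb2 peaks were farther away. A second chain, of 6 peaks, lay 118 to 139 kb downstream, at 188390649 to 188411788, and all 6 scored above the list median, from 342 to 2061. The top peak lay 120 kb downstream at 188409001 to 188411788, was 2788 bp wide and ranked 598 in the list. The next lay 124 kb downstream at 188404681 to 188406741, with a score of 1764 and rank 952. The third highest lay apart from both chains, 95.9 kb downstream at 188433394 to 188434752, with a score of 1539 and rank 1369. Of the other 4 members outside the chains, one lay 92.3 kb downstream with a score of 166, one 47.3 kb downstream with 162, and a pair lay 66.1 and 129 kb upstream with 82.6 and 136. In RD the 2 more distal of its 3 peaks lay at 113 and 130 kb downstream, but distances in different species do not place peaks on the same sequence, and no alignment was made.

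SMAD3, the receptor-activated transducer, had the most peaks in both lists and the highest scoring member in each. In RD, 5 of its 16 peaks lay upstream and 11 downstream. The strongest lay 21.2 kb upstream, at 67336490 to 67337118 on chromosome 15 (hg19), was 629 bp wide and scored 1782, rank 266 in the list. The others with high scores were downstream, one 82.9 kb away at 67440611 to 67441113 with a score of 980 and rank 1290, and one 43.9 kb away at 67401625 to 67402146 with a score of 899 and rank 1559. The remaining 13 scored from 81.6 to 279. No RD peak lay between 15.8 kb upstream and 14.9 kb downstream of the start. The median score of the 16 was 164, below the list's 189, so the RD window combined 3 strong peaks with many weak ones. The downstream peaks held a pair of chains of 4, at 33.2 to 44.1 kb and 68.5 to 84.95 kb, and each chain contained 1 of the 2 strong downstream peaks.

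In YAP-ERMS, 7 of the 22 Smad3 peaks lay upstream and 15 downstream. The member with the highest score of all 85 was here, 138 kb upstream at 63743647 to 63744980 on chromosome 9 (mm9), 1334 bp wide with a score of 2420 and rank 342. A score this high or higher was held by 0.727% of the YAP-ERMS list, and 1.17% of the RD list matched or exceeded the strongest RD peak of SMAD3. The next was 101 kb downstream at 63504489 to 63505936, with a score of 1448 and rank 1604, followed by one 147 kb downstream at 63458381 to 63459597, with a score of 1147 and rank 2694. The next highest lay 93.0 kb downstream, with a score of 1095. These 4 strongest peaks all lay over 90 kb from the start, and the one with the highest score lay in the outer part of the window. The nearest peak to the start ran from 0.761 to 2.60 kb downstream, at 63603396 to 63605239, and was weak, with a score of 107.

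Most Smad3 peaks lay in chains, of which the farthest downstream held the peaks scoring 1448 and 1095. Chains of 5, 6 and 5 peaks lay at 60.7 to 30.8 kb upstream, 0.761 to 33.3 kb downstream and 78.7 to 102 kb downstream. The chain that begins next to the start scored no higher than 378, and the upstream chain no higher than 596. In RD the nearest peaks to the SMAD3 start scored 279 upstream and 164 downstream. In human RefSeq order, SMAD6, another inhibitory SMAD, comes before SMAD3 and AAGAB after it.

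RefSeq lists 4 further starts of SMAD3 inside its window, and an RD peak was found at the distance of 1 of them. The second start lies 33.1 kb after the first in GRCh38.p14, and an RD peak with a score of 120 ran from 33.2 to 33.5 kb in hg19 distances. The hg19 start is given to 1 kb and the builds differ, so this is a match within 0.5 kb of distance, and whether the peak covers the second start was not tested. How often other positions in the windows lie as near a peak was not counted. The 250 bases before that start are shown because a peak lies at its distance, and they held no match to the 3 motifs.
SMAD3, second start, chr15:67098429-67098678, plus strand: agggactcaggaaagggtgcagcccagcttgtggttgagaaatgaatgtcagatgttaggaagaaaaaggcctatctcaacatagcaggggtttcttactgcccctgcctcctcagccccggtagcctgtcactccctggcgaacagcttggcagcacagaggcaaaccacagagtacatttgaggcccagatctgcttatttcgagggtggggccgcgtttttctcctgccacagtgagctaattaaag

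Of the other further starts of SMAD3, the one 60.1 kb after the first held the AP-1 site 56 to 50 bases before it, and no RD peak was found at that distance.

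SMAD7, the inhibitor, had the highest scoring peak within 5 kb of a start used for collecting peaks in YAP-ERMS and the only such peak in RD. In YAP-ERMS a chain of 7 peaks ran from 14.1 kb upstream to 25.7 kb downstream, at 75512910 to 75552713 on chromosome 18 (mm9). The top peak of the window lay in it, 19.0 kb downstream at 75545320 to 75546708, with a score of 1135 and rank 2747. The second lay 3.63 kb upstream at 75522378 to 75524354, with a score of 1089 and rank 2954, and was the highest scoring member within 5 kb of any of the starts in either list. Another peak, at 75525764 to 75526788, ended 0.212 kb before the start and scored only 104. The start is given to 1 kb, so whether that peak covers it was not settled. Peaks 8.27 and 24.4 kb downstream scored 806 and 687, and those 5.20 kb downstream and 13.5 kb upstream scored 172 and 110.

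Beyond this chain, YAP-ERMS had no Smad7 peak from 25.7 to 87.7 kb downstream. The third highest peak lay farther on, 127 kb downstream at 75652605 to 75655643, was 3039 bp wide, the widest of the 85, and scored 839. It belonged to a chain of 3 at 111 to 129 kb, whose other members scored 491 and 670. The other 4 members of the window scored from 111 to 286, and 1 of them was upstream, 88.9 kb away. In all, 4 of the 14 peaks lay upstream.

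In RD, 4 of the 11 SMAD7 peaks lay upstream and 7 downstream. A chain of 4 ran from 3.81 to 27.8 kb downstream, at 46449202 to 46473186 on chromosome 18 (hg19), with scores from 168 to 623. Its strongest peak lay 7.85 kb downstream at 46468911 to 46469386, 476 bp wide, with rank 2863. The peak nearest the start, and the only RD member within 5 kb of any of the 3 starts, lay 3.95 kb downstream at 46472915 to 46473186. It scored 184, below the RD median of 189. The highest score in the window, 744, belonged to a peak 47.7 kb upstream at 46524490 to 46525000, rank 2111. The third highest lay 102 kb upstream at 46579250 to 46579620, with a score of 339. A chain of 3 weaker peaks, scoring from 88.9 to 226, lay 115 to 122 kb downstream, and between both chains 87.4 kb were free of peaks. The last 2 members, 66.7 and 149.9 kb upstream, scored 156 and 143. By RefSeq order, DYM lies upstream of SMAD7 and CTIF downstream.

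RefSeq also lists 2 further starts of SMAD7. One of them lies 8.16 kb after the first in GRCh38.p14, and the RD peak with a score of 623, the strongest of the chain beside the start, ran from 7.61 to 8.09 kb in hg19 distances. As at SMAD3, this is a match within 0.5 kb of distance, and whether the peak covers that start was not tested. No RD peak was found at the distance of the other, 1.63 kb. Among the 9 RefSeq promoter windows of the 3 genes, the TEAD core was found in that of TGFB2 alone. Of all 35116 RefSeq promoter windows 11.9% held it, so a match in 1 of the 9 is close to that share. A match of letters is a description of the sequence. The sequences under the peaks were not analysed here, so the absence of a match in these windows says nothing of TEAD binding at the peaks.

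Peaks downstream of the starts outnumbered those upstream in each of the 6 windows. In RD, 0 of 3 TGFB2 peaks lay upstream (Wilson 95% interval 0% to 56.1%), 31.3% of SMAD3 peaks (14.2% to 55.6%) and 36.4% of SMAD7 peaks (15.2% to 64.6%). In YAP-ERMS the upstream shares were 21.1% for Tgfb2 (8.51% to 43.3%), 31.8% for Smad3 (16.4% to 52.7%) and 28.6% for Smad7 (11.7% to 54.6%). Together, 9 of 30 RD and 15 of 55 YAP-ERMS peaks were upstream. Only the Tgfb2 interval stays below 50%, and it treats peaks as independent, although 6 of the 15 downstream Tgfb2 peaks lay in 1 chain. With peaks within 1 kb joined, the Tgfb2 share rose to 26.7% of 15 peaks, and at scores of 160 or more it fell to 13.3%. The Tgfb2 share also rose within 100 kb, where 12 peaks remained. Whether its interval stays below 50% at these settings was not tested, so this exception is not firm. How peaks divide around other gene starts was not analysed here.

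Scores of the member peaks were compared with those of their own list. A peak in the top 10% of its list, a share of 10.0% in each list, had a score of at least 715 in RD and 835 in YAP-ERMS. In RD, 4 of the 30 members reached it (13.3%), 3 at SMAD3, 1 at SMAD7 and 0 at TGFB2. In YAP-ERMS, 12 of 55 reached it (21.8%), 5 at Tgfb2, 4 at Smad3 and 3 at Smad7. Within 100 kb of the starts the order turned, with 4 of 21 RD members (19.0%) and 5 of 40 YAP-ERMS members (12.5%). Members of 1 window share a neighbourhood and are not independent, so no test was made. The median score of the members was 176 in RD against 189 for the list, and 286 in YAP-ERMS against 205. Within 100 kb of the starts the median was 172 in YAP-ERMS and 168 in RD, both below their lists. By gene the RD medians were 254 at TGFB2, 164 at SMAD3 and 184 at SMAD7, and the YAP-ERMS medians were 269, 266 and 388 in the same order. Within 100 kb the YAP-ERMS medians were 177, 162 and 229, so those of Tgfb2 and Smad3 fell below the list median. More than the list's median was scored by 12 of 30 members in RD (40.0%) and by 31 of 55 in YAP-ERMS (56.4%). RD members ranged from 131 to 629 bp in width, with a median of 315 bp against 335 bp for the list. YAP-ERMS members ranged from 729 to 3039 bp, with a median of 1208 bp against 1083 bp.

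**Figure D4:**
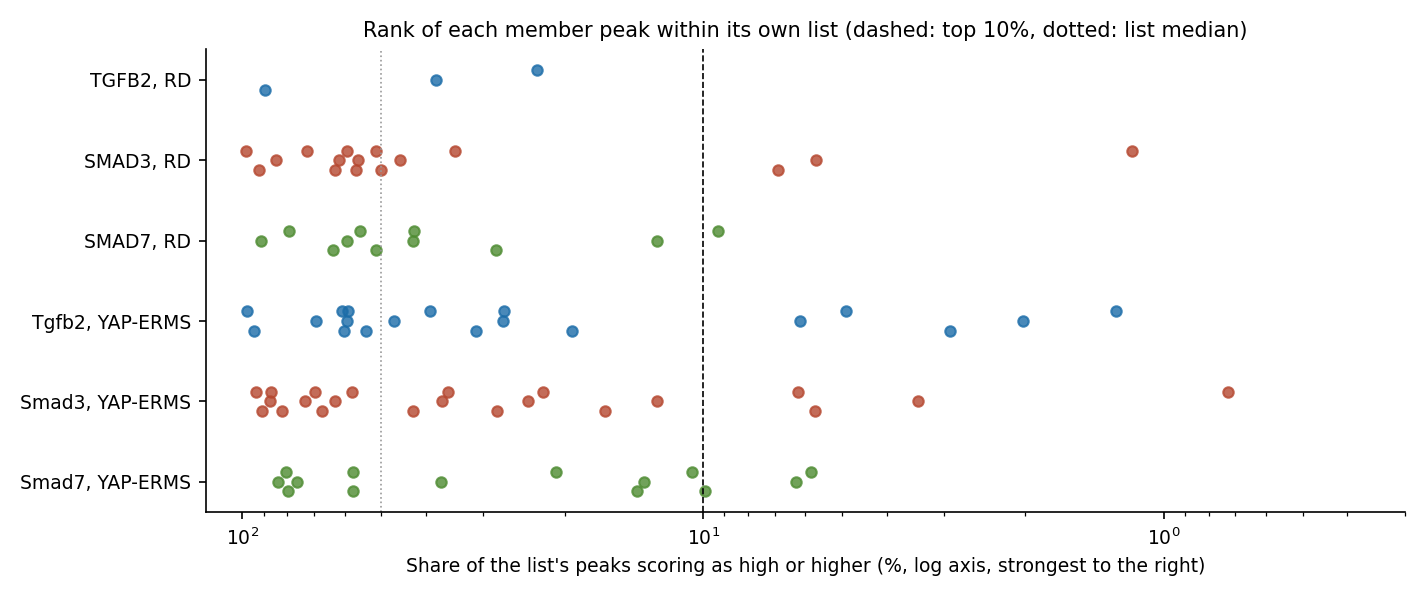
Each point is 1 member peak, placed by the percentage of its own list that scores as high or higher (log axis, strongest to the right), in rows by gene and cell type with small vertical offsets for legibility. In RD 4 points lie beyond the dashed 10% line and none of them belongs to TGFB2, while in YAP-ERMS 12 points do, 5 of them at Tgfb2.

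The limit of 150 kb passed close to 2 RD peaks. The outermost member at SMAD7 lay 149.87 kb upstream with a score of 143. At TGFB2, a peak with a score of 84.6 lay 150.05 kb downstream, just outside, and it would make 4 members with the start 0.5 kb higher. At SMAD3 the first RD peak outside, 182 kb upstream, scored 2289, above every RD member, of which the highest scored 1782. In YAP-ERMS, the Smad3 peak at 147 kb downstream with a score of 1147 was the last inside on that side and one at 155.7 kb with a score of 103 the first outside. At Smad7 the last inside, at 147.5 kb downstream, scored 111 and the first outside, at 161 kb, scored 527. At Tgfb2 no peak lay between 138 kb, where the last downstream member scored 1101, and 224 kb, where the next scored 233.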

How the data were processed

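Each cell type had 1 TEAD and 1 control library (4 in all), and the authors deposited 1 peak list per cell type. Bowtie2 and the builds hg19 and mm9 are named in the submitters' processing notes. Versions and read filters: not given in the sources used here. A deposited score equals -log10 of the peak p-value multiplied by 10 as interpreted here, because the lowest score is 80 and the list names state a limit of 1e-08. Scores depend on depth and control, so peaks were ranked only within a list. The depth is unknown and p-values of peaks carry no replicate error.

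Members were found with pandas 2.3.3, numpy 2.4.6 and scipy 1.17.1 under Python 3.11.15, and plots were drawn with matplotlib 3.10.9. Positions are 1-based. The genes were chosen with earlier results of these data known. The starts came with that choice. The direction of the human genes is from RefSeq and that of the mouse genes is general knowledge, since no mouse annotation was used here. Peaks named in full were the 3 highest scoring of each window and those within 5 kb of a start, and others were named after their values were seen. Tiles of 300 kb covered the span of peaks on each of 23 human or 20 mouse chromosomes. Ratio intervals are exact binomial. Peak finding by distance, tiling and joining were tested on simulated peaks. Other TGF-beta genes need an annotation of these builds and were not analysed here. Other windows, score limits, joined peaks, membership by overlap and other tiles were tried as alternatives.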

Additional observations from a re-analysis of the deposited data

How the results depend on the processing

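Results that moved are given here. The other settings left numbers of peaks within 1.5 times, and shares and median scores within their counting intervals, which are wide for so few peaks. Within 100 kb of the start, fewer peaks remained by construction: 1 in RD and 12 in YAP-ERMS at TGFB2, and 6 in RD at SMAD7. The highest score was then 254 at TGFB2 in RD, 1539 at Tgfb2 and 1095 at Smad3 in YAP-ERMS, because the stronger peaks lie beyond 100 kb. Median scores in YAP-ERMS fell by over 1.5 times, to 177 at Tgfb2, 162 at Smad3 and 229 at Smad7. With scores of 160 or more, 9 RD and 13 YAP-ERMS peaks remained at SMAD3 and 7 RD peaks at SMAD7, and the upstream share of Smad7 in YAP-ERMS was 10.0%. Against tiles with at least 1 peak alone, the share of tiles with as many peaks rose to 54.1%, 1.39% and 5.42% in RD and to 4.11%, 1.74% and 12.6% in YAP-ERMS, for TGFB2, SMAD3 and SMAD7. Moving the starts by 0.5 kb was added after seeing the data, as were the joint medians and high-score shares within 100 kb. No paired analysis was possible because each group had 1 library, which also means that no replicate could be left out.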
